A study of Macaca fascicularis with 2 samples.

Results

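Pluripotency and primordial germ cell (PGC) factors were followed in single cells of fetal ovaries of the cynomolgus monkey, Macaca fascicularis. The members are 10 genes listed by name, NANOG, TFAP2C, SOX17, SOX15, PRDM1, DPPA4, LIN28A, SALL4, L1TD1 and POU5F1, and 9 of the 10 have a row under that symbol among the 18446 genes of the count table. POU5F1 was not analysed here. The study asked how germ cells and the surrounding somatic cells develop in the fetal ovary, with 1 untreated female fetus at embryonic day 84 (E84) and 1 at E116. Both ovaries of a fetus were dissociated into 1 single-cell suspension and captured as 1 droplet library with 3′ counting of transcripts. The 20967 cells of the table carry barcodes ending in 1 (10621 cells) or in 2 (10346 cells), and the table does not tie an ending to a stage. All cells, including the 4675 with more than 3000 detected genes, were therefore described as 1 pooled sample, and nothing below is a comparison of E84 with E116.

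PGCs are the founders of the germline. In primates SOX17, TFAP2C and PRDM1 act together when these cells are specified, and the specified cells keep or regain part of the pluripotency network, with NANOG as a core transcription factor of that network. LIN28A and L1TD1 are RNA-binding proteins of pluripotent cells, DPPA4 is a chromatin-associated protein, SALL4 is a zinc finger transcription factor of stem and germ cells, and SOX15 is an SRY-related factor found in primate PGCs. In the fetal ovary, PGC-derived oogonia divide, respond to retinoic acid (RA), enter meiosis and finally arrest as oocytes in primordial follicles. SOX17 is also a factor of endothelial cells, and PRDM1, known as Blimp-1, is also a factor of plasma cells and other immune cells.

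Clusters were named from marker genes that included no member, and the members were taken out of the variable genes from which the clusters were built. Germ cell-like cells numbered 6358 (30.3% of all cells). The 4 steps held 283 mitotic-like, 1473 RA-responsive-like and 1610 meiotic-like cells, besides 678 oocyte-like ones, and 2314 cells stayed without a step. The mitotic-like cluster passed the naming threshold for 6 of its 12 markers, and its leading genes included NANOG itself, which the naming did not use. The summed level of the mitotic markers was 635 CPM (UMIs scaled to the same total, 1000000, in each group) in mitotic-like cells, and the highest of the other 3 steps was 266 CPM. RA-responsive markers summed to 682 CPM in mitotic-like cells against 1260 CPM in the RA-responsive-like step. Of that list of 10, 1 passed the naming threshold in the mitotic-like cluster, whose leading genes included CRABP1 of the list. With each cell reduced at random to 2000 UMIs, ZGLP1 was in 2.75% of mitotic-like cells, STRA8 in 0.392% and REC8 in 0%. In RA-responsive-like cells they were in 23.6%, 8.08% and 19.6%. The sum thus does not describe every marker of the list. A UMI is a barcode that marks 1 captured RNA molecule. Median depth was 11430 UMIs in mitotic-like cells, 6039 in RA-responsive-like, 2080 in meiotic-like and 2815.5 in oocyte-like cells.

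The barcode endings were spread unevenly over the steps. Of the mitotic-like cells 278 had ending 1 and 5 had ending 2, whereas 657 of the 678 oocyte-like cells had ending 2. Ending and step can therefore hardly be told apart at either end of the series. The somatic classes were granulosa-like (7071 cells), stroma-like (4601), ovarian surface epithelium-like (1259), erythroid-like (747), endothelial-like (546), immune cell-like (246) and pericyte and smooth muscle-like (139). Erythroid-like cells, which should lack every member, served to gauge RNA that is free in the suspension. There the 9 members lay between 0 (TFAP2C, with an upper bound of 0.976) and 2.91 CPM. The erythroid markers summed to 469920 CPM in these cells, which lowers the CPM of all other RNA. The level there may therefore understate free RNA in other cells. Both endings shared 27 barcode sequences. The doublet caller marked 0 cells in either set, so doublets are still among the cells, and 10 of the 283 mitotic-like cells were among the 8% with the highest doublet scores. A level is the CPM of all UMIs of a group added up, and the range in parentheses is its exact 95% Poisson interval or, for a percentage of cells, its exact 95% binomial interval. Such ranges hold counting error alone and not the difference between fetuses, and with 1 library a stage no test was possible. Levels of different genes were not ranked against each other, because capture at the 3′ end differs from gene to gene.

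All 9 members had their highest level of the 4 steps in mitotic-like cells, and in each the interval lay above that of the next step. Of all 12551 genes with at least 50 UMIs in the 4 steps, 20.7% were highest in mitotic-like and 20.9% in RA-responsive-like cells. Among these genes the share with intervals apart was not computed. NANOG had 211 CPM (196–226) in the mitotic-like step, 16.3 (14.2–18.5) in RA-responsive-like, 3.24 (2.15–4.68) in meiotic-like and 8.05 (6.46–9.92) in oocyte-like cells. At least 1 NANOG UMI was found in 212 of the 283 mitotic-like cells and in 2 of the 747 erythroid-like cells, with a median of 2 and a maximum of 16 UMIs per mitotic-like cell. Most captured mitotic-like cells thus carried NANOG at their own depth.

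The 3 specification factors did not share 1 profile. TFAP2C, an AP-2 transcription factor, had 114 CPM (103–126) in the mitotic-like step and 4.12 (3.12–5.34), 2.78 (1.78–4.13) and 11.8 (9.85–14.0) in the next 3 steps in turn. SOX17, an endodermal and germline SRY-related factor, was at 97.1 CPM (87.1–108), then 29.9 (27.1–32.9), 22.9 (19.8–26.3) and 2.38 (1.55–3.49). PRDM1, a transcriptional repressor, was at 63.9 CPM (55.8–72.8), then 14.5 (12.6–16.7), 13.3 (11.0–16.0) and 3.75 (2.69–5.09). SOX17 and PRDM1 were still detected in meiotic-like cells above the erythroid-like level of 0.265 and 0.794 CPM, which may understate free RNA. The part of free RNA in the meiotic-like levels was not tested. SOX15 had the order of TFAP2C, with 88.8 CPM (79.2–99.3) in mitotic-like cells and then 2.89 (2.07–3.94), 1.85 (1.06–3.0) and 7.05 (5.56–8.81).

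**Figure D1:**
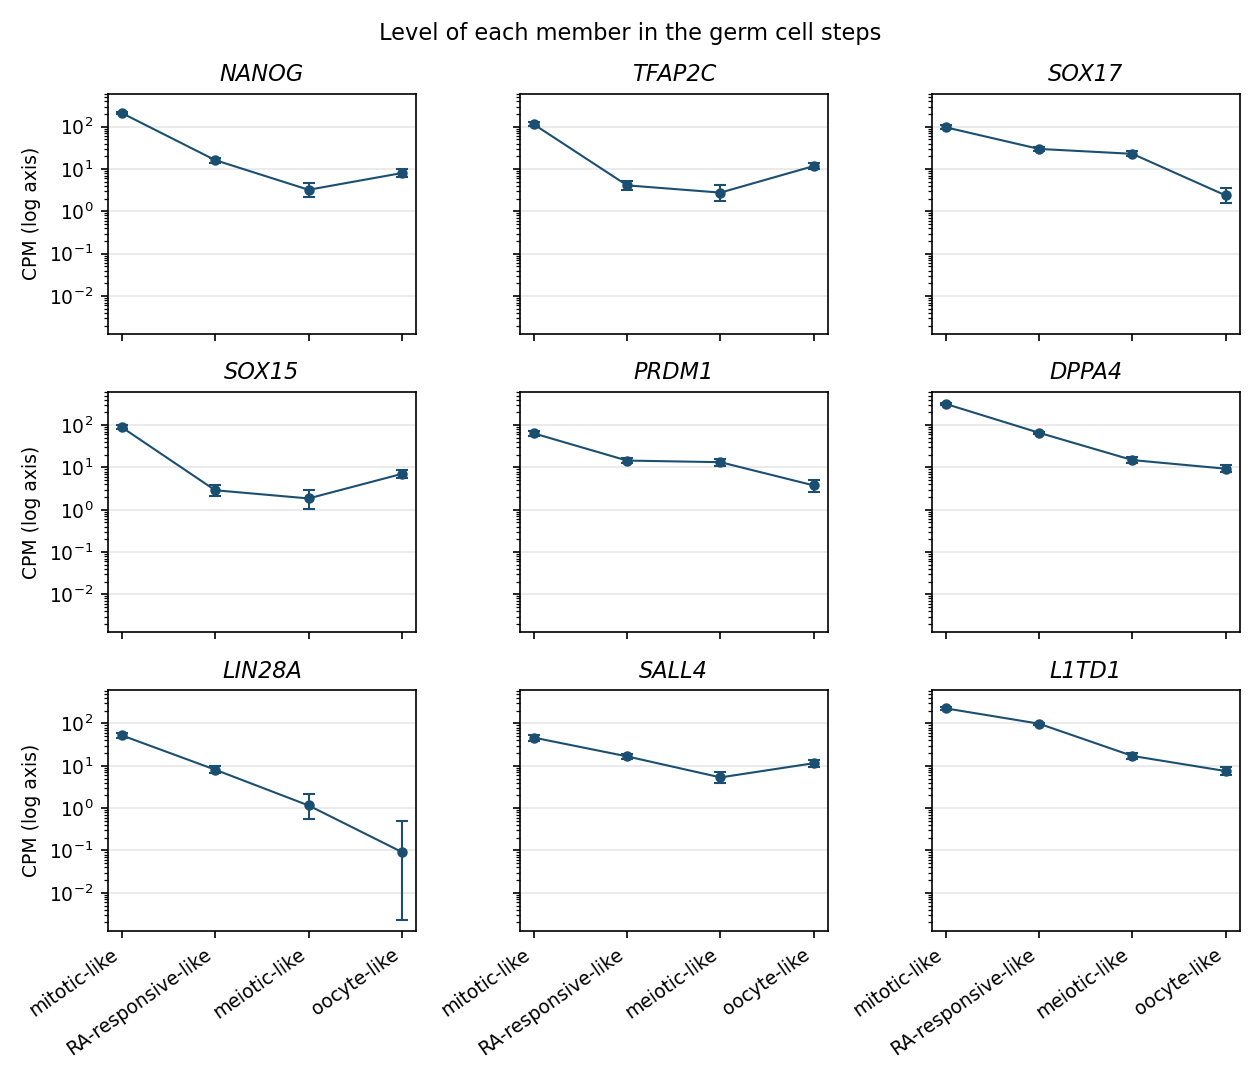
Level of each of the 9 members in the 4 germ cell steps, in CPM on a log axis shared by all panels. Points are summed UMIs of the step per 1000000, bars are exact 95% Poisson intervals, and every member is highest in the 283 mitotic-like cells while NANOG, TFAP2C, SOX15 and SALL4 are higher in oocyte-like than in meiotic-like cells.

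The remaining 4 members differed over more than 1 pair of steps. DPPA4 was at 317 (299–337), 66.0 (61.8–70.4), 14.9 (12.5–17.7) and 9.33 (7.61–11.3) CPM in the 4 steps in turn. L1TD1 followed with 228 (212–244), 98.9 (93.8–104), 17.1 (14.5–20.1) and 7.5 (5.97–9.31) CPM. LIN28A, an inhibitor of let-7 microRNA maturation, was at 52.4 (45.1–60.6), 8.09 (6.66–9.74) and 1.16 (0.555–2.13) CPM, and only 1 of its UMIs lay in the 678 oocyte-like cells. SALL4 was still detected in every step, with 46.4 (39.5–54.1), 16.7 (14.6–19.0), 5.32 (3.89–7.10) and 11.5 (9.60–13.7) CPM. For 6 of the 9 members every step was apart from its neighbour in the order of levels. How many of all genes have steps apart in this way was not computed, so the count describes the members alone. The RA-responsive-like and meiotic-like intervals overlapped for TFAP2C, SOX15 and PRDM1.

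The size of each difference was given as a log2 ratio with 10 CPM added to both levels, so that genes near 0 do not produce large ratios. Mitotic-like cells were at least 2-fold above RA-responsive-like cells for 9 of 9 members, where 3.94% of all 12551 genes were that much higher and 6.85% that much lower. In 9 of 14 alternatives all 9 stayed past it, and in the other 5 it was 7 of 9. SALL4 (0.73 to 0.99) and L1TD1 (0.73 to 0.94) were under it with only cells of up to 10% mitochondrial UMIs, with integrated barcode sets, with only cells of at least 2000 UMIs and with only ending 1. NANOG (0.35) and PRDM1 (0.21) were under it with only ending 2 and its 5 mitotic-like cells. The median log2 ratio was 1.79 for the members and −0.14 for all genes. TFAP2C (3.14, 2.98–3.28), NANOG (3.07, 2.92–3.22) and SOX15 (2.94, 2.78–3.08) had the steepest ratios, with intervals that overlapped each other and lay above those of the other 6. DPPA4 had 2.11 (1.99–2.22), LIN28A 1.79 (1.57–1.99), PRDM1 1.59 (1.39–1.79) and SOX17 1.42 (1.25–1.60). L1TD1 (1.13, 1.01–1.25) and SALL4 (1.08, 0.86–1.30) were lowest, and the interval of SALL4 included ratios below 2-fold. With 1 CPM added, where 8.68% of all genes were at least 2-fold higher, TFAP2C (4.49, 4.15–4.84) and SOX15 (4.53, 4.15–4.91) lay apart from NANOG (3.62, 3.41–3.83), and LIN28A (2.55, 2.23–2.88) was above DPPA4 (2.25, 2.12–2.38) with overlapping intervals.

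Between the RA-responsive-like and the meiotic-like step only L1TD1 (2.01, 1.84–2.17) and DPPA4 (1.61, 1.43–1.78) were past 2-fold, 2 of 9 members against 4.20% of all genes. None of the 9 was at least 2-fold lower, where 5.54% of all genes were. NANOG lay just under 2-fold higher, at 0.99 (0.80–1.14). The count depends on the 10 CPM added. With 1 CPM added, 5 of 9 members were past 2-fold against 11.6% of all genes, the others being LIN28A (2.08, 1.48–2.60), NANOG (2.03, 1.56–2.49) and SALL4 (1.49, 1.08–1.90). TFAP2C (0.14, −0.04 to 0.31), SOX15 (0.12, −0.05 to 0.26) and PRDM1 (0.07, −0.12 to 0.27) had intervals that held 0. TFAP2C and SOX15 thus had their difference between the first and the second step, while DPPA4 and L1TD1 had another past 2-fold between the second and the third. SOX17 was past 2-fold between meiotic-like and oocyte-like cells, with a log2 ratio of 1.41 (1.24–1.55). That is 1 of 9 members against 11.1% of all genes, a count near that share. Its level among the 4 steps was thus lowest in the oocyte-like one. With 1 CPM added PRDM1 (1.59, 1.15–2.03) and L1TD1 (1.09, 0.73–1.46) were past 2-fold too, 3 of 9 members against 23.2% of all genes. Set directly against oocyte-like cells, RA-responsive-like cells were at least 2-fold higher for L1TD1 (2.64), DPPA4 (1.97) and SOX17 (1.69), 3 of 9 members against 8.06% of all genes, and that much lower for 0 members against 7.47%.

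**Figure D2:**
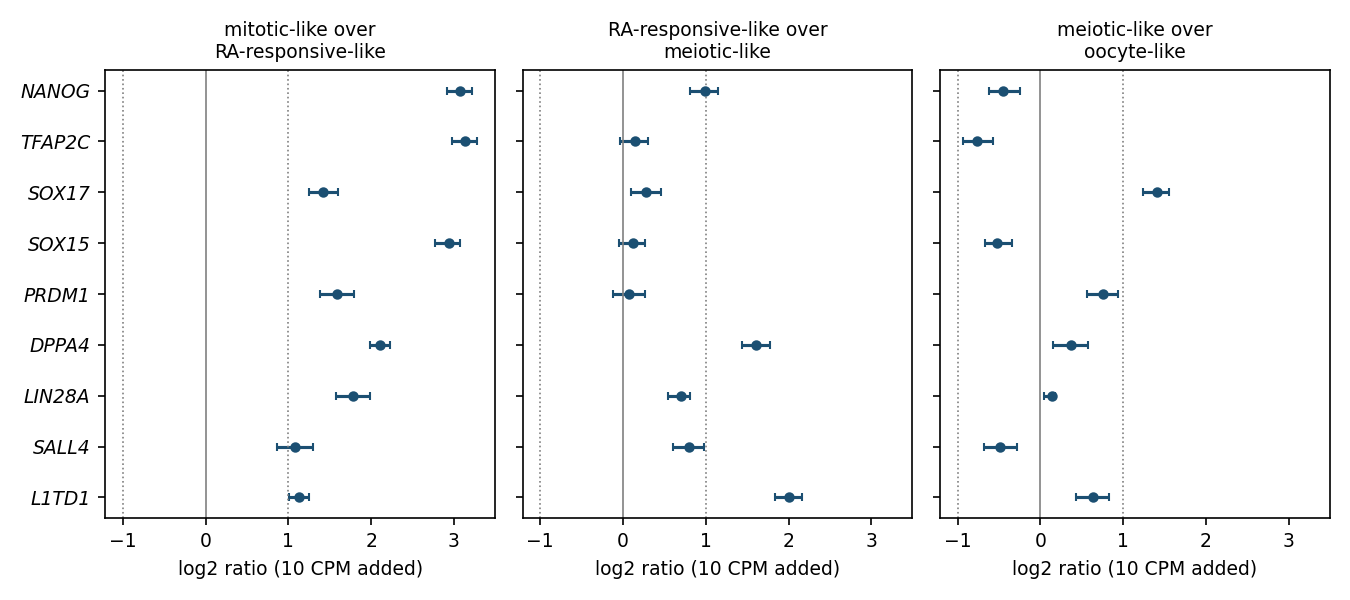
Log2 ratio of the level of each member between neighbouring germ cell steps, with 10 CPM added to each level. Points are ratios, bars are intervals from the exact conditional binomial of both counts, the solid line marks 0 and the dotted lines a 2-fold difference; all 9 points lie right of 1 in the left panel, and only DPPA4 and L1TD1 do in the middle one.

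In oocyte-like cells 4 members were higher than in meiotic-like cells. The log2 ratio of meiotic-like over oocyte-like cells was −0.77 (−0.93 to −0.58) for TFAP2C, −0.52 (−0.67 to −0.34) for SOX15, −0.49 (−0.68 to −0.28) for SALL4 and −0.45 (−0.62 to −0.25) for NANOG. With 10 CPM added 0 members passed 2-fold in this direction, where 8.17% of all genes did. With 1 CPM added TFAP2C (−1.76, −2.26 to −1.25), SOX15 (−1.50, −2.05 to −0.92) and NANOG (−1.09, −1.60 to −0.58) passed it, 3 of 9 members against 15.1% of all genes. A sub-cluster of 313 cells with a median of 18218 UMIs, led by PADI6 and ZAR1, had TFAP2C at 12.5 CPM (10.4–14.9), and the shallow sub-cluster of 365 cells had 2 TFAP2C UMIs, or 2.55 CPM (0.308–9.20). The deep and shallow intervals overlapped for NANOG (8.38 and 3.82 CPM), SOX15 (7.30 and 3.82) and SALL4 (11.8 and 7.64). Within barcode ending 2, where nearly all oocyte-like cells lie, TFAP2C was at 12.0 CPM (10.1–14.3) in 657 oocyte-like cells and 2.13 (0.919–4.19) in 243 meiotic-like cells. NANOG was at 8.22 (6.59–10.1) and 3.19 (1.65–5.58) CPM in the same cells. The TFAP2C UMIs were spread over 76 oocyte-like cells, with 129 UMIs in all.

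Values inside each barcode ending kept the order of the first step and the rest. The 5 mitotic-like cells with ending 2 held only 1 to 18 UMIs of each member, and although all 9 levels there were above those of the other 3 steps of that ending, the intervals were wide, from 0.443 to 97.5 CPM for TFAP2C and PRDM1, each with 1 UMI. RA-responsive-like cells were numerous in both sets and differed between them. NANOG was at 11.4 CPM (9.26–13.8) in the 1170 RA-responsive-like cells of ending 1 and 25.3 (21.1–30.2) in 303 cells with ending 2. L1TD1 went the other way, with 113 (106–120) and 72.9 (65.5–80.9) CPM, as did DPPA4 with 73.5 (68.0–79.3) and 52.1 (45.9–59.0) and SALL4 with 21 (18.1–24.3) and 8.65 (6.24–11.7). A sub-cluster of 186 RA-responsive-like cells, only 3 of them with ending 1 and led by RFX6, CRYGC and MEIS2, had NANOG at 26.3 CPM (21.4–31.8) and TFAP2C at 2.04 (0.880–4.02). SOX15 was at 3.57 CPM (1.95–5.99) in the same cells, so NANOG was higher there while TFAP2C and SOX15 were near their RA-responsive-like levels.

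Large and small cells of the mitotic-like step had similar levels of most members. The 107 mitotic-like cells with up to 3000 genes and the 176 with more had overlapping intervals for 7 of 9 members, for example 119 CPM (93.0–151) and 113 (101–126) for TFAP2C. NANOG was at 259 CPM (219–304) in the smaller and 201 (185–218) in the larger cells, and SOX17 at 133 (105–166) and 89.9 (79.3–101), both higher in the smaller cells. The share of all genes with overlapping intervals between smaller and larger cells was not computed. Without the cells above 3000 genes most UMIs of the members would be missing, since 82.4% of NANOG UMIs and 84.9% of TFAP2C UMIs of the whole table lay in cells with more than 3000 genes. Such cells are deep, and their share of the UMIs of all genes was not computed. The shares are thus not shown to be particular to the members.

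The germ cells without a step were 2314 of the 6358 germ cell-like cells and held 14272036 of their 51177407 UMIs of all genes. They held 32.9% of the NANOG UMIs and 30.0% of the TFAP2C UMIs of the whole table. Most of these came from 1 sub-cluster of 475 deep cells, with a median of 21231 UMIs, in which NANOG stood at 45.1 CPM (41.4–49.1), DPPA4 at 81.2 (76.1–86.4) and TFAP2C at 24.0 (21.3–26.9). Its leading genes were PTGDS, EGR3 and SOST, and the summed granulosa markers were at 966 CPM there and 128 CPM in the mitotic-like step. The summed stroma markers were at 1442 and 316 CPM. Of the 475 cells, 216 were among the 8% with the highest doublet scores. The part of somatic RNA in these levels was not tested.

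Outside the germline the members parted into 2 kinds. NANOG, TFAP2C, SOX15, DPPA4, LIN28A, SALL4 and L1TD1, 7 of 9, were at least 2-fold higher in mitotic-like cells than in the somatic class with their highest level, where 2.77% of 15001 genes were. Their highest somatic levels lay between 1.84 and 5.38 CPM, and that of SOX15 rested on 4 UMIs in pericyte and smooth muscle-like cells. SOX15 in stroma-like cells was better counted, at 4.25 CPM (3.48–5.13) from 107 UMIs in 102 cells, and SALL4 in granulosa-like cells stood at 2.93 CPM (2.46–3.46) from 139 UMIs. Germ cell-like cells held 95.0% of all NANOG UMIs, 92.5% of L1TD1, 92.1% of DPPA4, 91.1% of TFAP2C, 89.6% of LIN28A, 81.6% of SALL4 and 72.3% of SOX15 UMIs. They held only 54.9% of SOX17 and 52.8% of PRDM1 UMIs.

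**Figure D3:**
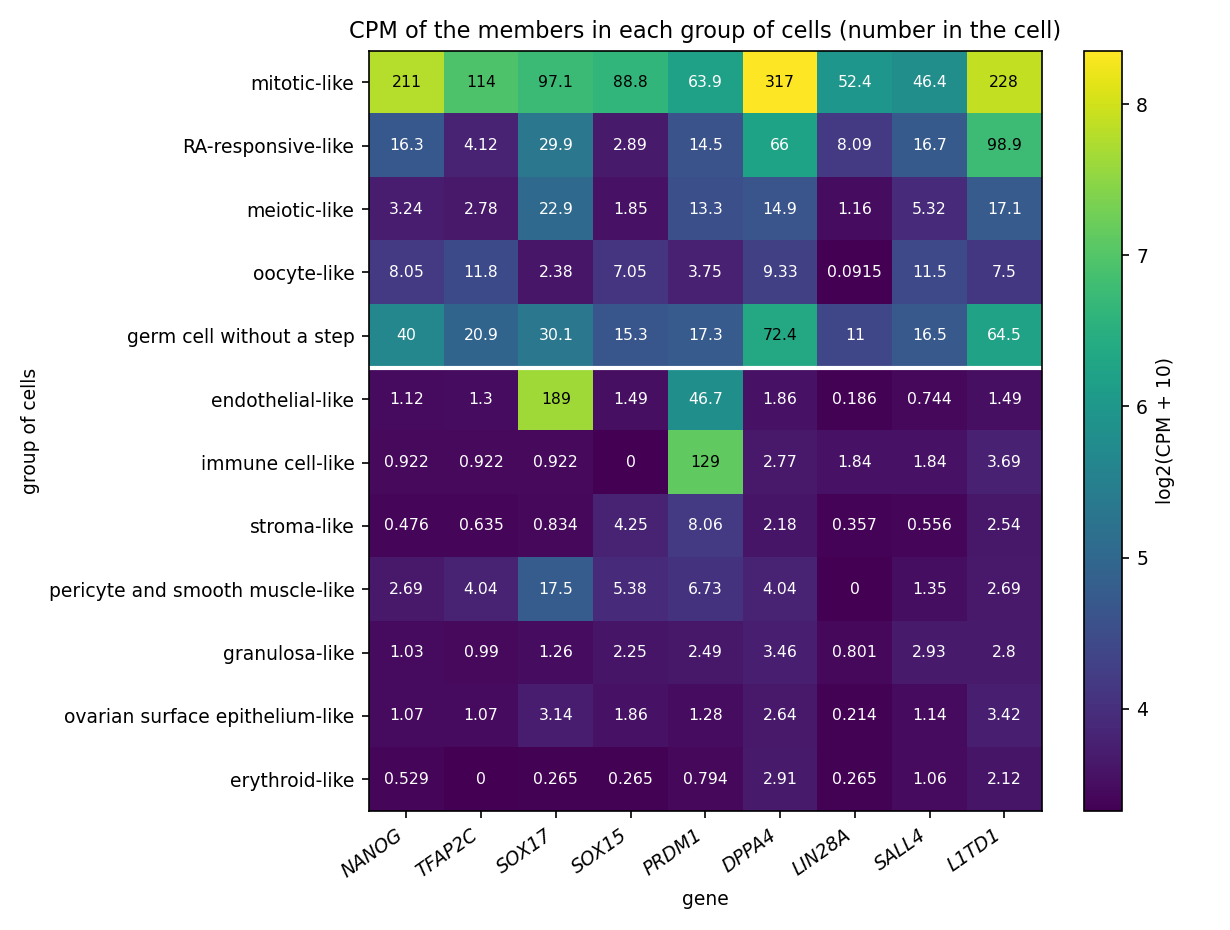
CPM of the 9 members (columns) in the germ cell steps, the germ cells without a step and the 7 somatic classes (rows), with the value printed in each field and colour giving log2(CPM + 10). The white line parts germ cells from somatic cells, below which SOX17 in endothelial-like cells (189) and PRDM1 in immune cell-like (129) and endothelial-like cells (46.7) stand out.

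SOX17 was higher in endothelial-like than in mitotic-like cells. It stood at 189 CPM (178–201) in 546 endothelial-like cells, from 1017 UMIs in 277 cells, which was 39.7% of all its UMIs. The log2 ratio of mitotic-like over endothelial-like cells was −0.89. By ending the endothelial-like level was 145 CPM (119–176) in 147 cells and 196 (183–209) in 399 cells, intervals that did not overlap, and both lay above the mitotic-like interval. The other members were at 0.186 to 1.86 CPM in endothelial-like cells, apart from PRDM1. In pericyte and smooth muscle-like cells SOX17 reached 17.5 CPM (9.31–29.9), but its 13 UMIs lay in 4 of 139 cells.

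PRDM1 had its highest level in immune cell-like cells, 129 CPM (109–152) from 140 UMIs in 48 of 246 cells. The log2 ratio of mitotic-like over immune cell-like cells was −0.91. The level was 137 CPM (74.7–229) in 40 cells with ending 1 and 128 (107–153) in 206 cells with ending 2. It was followed by mitotic-like cells (63.9 CPM) and endothelial-like cells (46.7, 41.1–52.8). Stroma-like cells had 8.06 CPM (6.99–9.25), with 3.26 (2.15–4.74) at ending 1 and 10.4 (8.93–12.1) at ending 2.

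**Figure D4:**
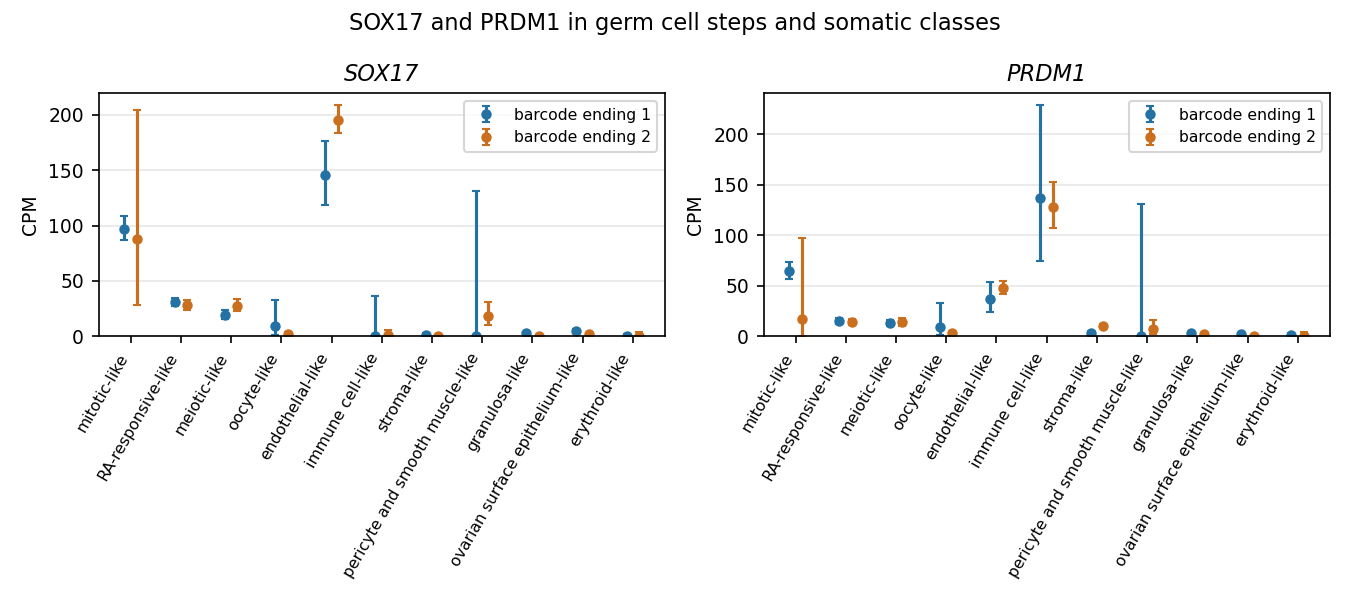
SOX17 (left) and PRDM1 (right) in CPM in each germ cell step and somatic class, with the barcode endings apart and bars giving exact 95% Poisson intervals. SOX17 is highest in endothelial-like cells at both endings (145 and 196 CPM) and PRDM1 in immune cell-like cells at both (137 and 128 CPM), and wide bars mark groups with few cells of an ending.

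Genes of vessel and blood cell subsets, chosen after the somatic levels were seen, were set beside both factors, 11 in endothelial-like and 8 in immune cell-like cells. In endothelial-like cells with a UMI of CXCR4, a chemokine receptor found on arterial and tip cells, SOX17 was at 269 CPM (248–292), against 134 (121–147) in those without. In cells with a UMI of NR2F2, a transcription factor of veins, it was at 175 CPM (163–188), against 281 (243–323) in those without. Cells with a UMI were deeper in both splits, with medians of 12863 against 4763 UMIs for CXCR4 and 8947 against 2845 for NR2F2, while SOX17 was higher with CXCR4 and lower with NR2F2. Within ending 1 the CXCR4 split gave 186 (125–267) and 134 (105–168) CPM with overlapping intervals, and the NR2F2 split 119 (91.7–151) and 243 (171–335). Of HEY1, an arterial transcription factor, cells with a UMI had SOX17 at 239 CPM (220–259) and those without at 149 (135–163), but within ending 1 at 104 (63.3–160) and 161 (128–199). With and without a UMI of SOX18, an endothelial paralogue, SOX17 was at 189 (177–202) and 188 (159–222) CPM, and within ending 1 at 124 (94.0–160) and 187 (137–251), with overlapping intervals in both. SOX17 was also higher with a UMI of SOX7 (202 CPM, 189–216, against 132, 111–157) and DLL4 (208, 193–223, against 152, 134–171). It was lower with PLVAP (136, 112–164, against 198, 186–212) and PROX1 (118, 96.8–142, against 204, 191–218). Of these, only PLVAP stayed apart within ending 1. Within ending 2, with 399 of the 546 cells, the PLVAP intervals overlapped (161, 129–199, against 200, 187–214). SOX7 (209, 195–223, against 126, 102–155), DLL4 (208, 193–224, against 163, 141–186) and PROX1 (118, 96.7–142, against 215, 200–230) stayed apart there. So did CXCR4, HEY1 and NR2F2, in the direction seen in all cells. For LYVE1, PECAM1 and CDH5 the intervals of all cells overlapped. With each cell reduced to 2000 UMIs, CXCR4 was found in 17.5% (11.3–25.2) of 126 endothelial-like cells with a SOX17 UMI and 8.18% (5.41–11.8) of 318 without, and NR2F2 in 42.9% (34.1–52.0) and 51.9% (46.2–57.5). The intervals overlapped for both genes and for the other genes set beside SOX17. For PRDM1 in endothelial-like cells the intervals were apart for SOX18. It was found in 71.4% (51.3–86.8) of 28 cells with PRDM1 and 38.0% (33.3–42.8) of 416 without. For the other genes set beside PRDM1 there, the intervals overlapped. Among immune cell-like cells PRDM1 was at 321 CPM (232–432) in the 13 cells with a UMI of MZB1, a plasma cell gene, and at 102 (82.7–124) in the others. All 13 had ending 2, and their median depth was 6414 against 2561 UMIs. At 2000 UMIs MZB1 was found in 14.8% (4.19–33.7) of 27 cells with PRDM1 and 4.69% (1.74–9.92) of 128 without, overlapping intervals. In the 63 cells with a UMI of C1QA, a macrophage complement gene, PRDM1 was at 180 CPM (136–234), against 109 (86.6–134) in the others, but the 13 such cells of ending 1 had 0 PRDM1 UMIs. At 2000 UMIs C1QA was in 33.3% (16.5–54.0) of cells with PRDM1 and 14.8% (9.18–22.2) of cells without, and the intervals overlapped. PRDM1 was at 52.3 CPM (28.6–87.7) in the 63 cells with a UMI of NKG7, a gene of cytotoxic lymphocytes, and 154 (128–184) in the rest. NKG7 itself was in 7.41% (0.910–24.3) and 28.9% (21.2–37.6) at 2000 UMIs, again with overlap.

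To describe how many members were found in a cell, each cell was reduced at random to 2000 UMIs, which leaves out shallower cells. This kept 255 of 283 cells of the mitotic-like step, 1163 of 1473 of the RA-responsive-like, 827 of 1610 of the meiotic-like and 381 of 678 of the oocyte-like step. At that depth 62.4% (56.1–68.3) of mitotic-like cells had a UMI of at least 2 of the 9 members, against 8.0% (6.50–9.71) of RA-responsive-like, 0.846% (0.341–1.74) of meiotic-like and 0.262% (0.00664–1.45) of oocyte-like cells. These shares also rise with the level of each single member, and the share under independence was not computed. They alone do not show that members go together. A mitotic-like cell had 2.01 members on average and 7 at most, and 11.8% (8.08–16.4) had at least 4. At least 1 member was found in 89.4% (85.0–92.9) of mitotic-like cells, 35.9% (33.1–38.7) of RA-responsive-like cells and 10 of 572 erythroid-like cells, where 0 cells had 2. In endothelial-like cells it was 33.8% (29.4–38.4) and in immune cell-like cells 18.1% (12.4–25.0), and 2.93% (1.57–4.95) of endothelial-like cells had at least 2. Of germ cells without a step 10.3% (8.18–12.7) had at least 2. Over 20 other random reductions the mitotic-like share with at least 2 was 58.8% to 67.5%. The share was 34.2% (28.6–40.1) at 1000 UMIs and 95.7% (92.3–97.9) at 5000 UMIs, so a cell without a member at 2000 UMIs need not lack it.

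Single members at 2000 UMIs ranged from DPPA4, found in 46.7% (40.4–53.0) of mitotic-like cells, over NANOG in 32.9% (27.2–39.1), to SALL4 in 7.06% (4.24–10.9). In RA-responsive-like cells L1TD1 (16.0%, 13.9–18.2) and DPPA4 (13.3%, 11.4–15.4) were the members most often found, and TFAP2C and SOX15 were in 0.688% and 0.430% of cells. SALL4 was in 3.35% (2.40–4.56) of RA-responsive-like cells. L1TD1 was in 31.0% (25.4–37.1) of mitotic-like cells, an interval that overlapped that of NANOG.

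Pairs of members were then described by how often one was found in cells with and without the other. Of 36 pairs in the mitotic-like step, 19 were found together more often than independence gives, with a median ratio of 1.08, and for 0 pairs did the intervals of the shares with and without the first gene part. Averaged over all possible reductions to 2000 UMIs, 28 of 36 pairs had the higher share in cells with the first gene. The differences were small, for example SOX15 in 21.7% of cells with TFAP2C and 15.2% of cells without, and SOX17 in 23.4% and 16.9%. NANOG went with SOX15 in the same direction, 20.4% against 14.7%, and PRDM1 showed no such difference with NANOG, 11.9% against 11.3%. At 5000 UMIs, too, 0 of 36 pairs had intervals apart. With 255 cells, no pair was thus seen to go together or apart beyond counting error in this reduction, while 8 of 20 other random reductions had up to 3 pairs apart in the direction of going together and 1 had a pair apart in the other direction.

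**Figure D5:**
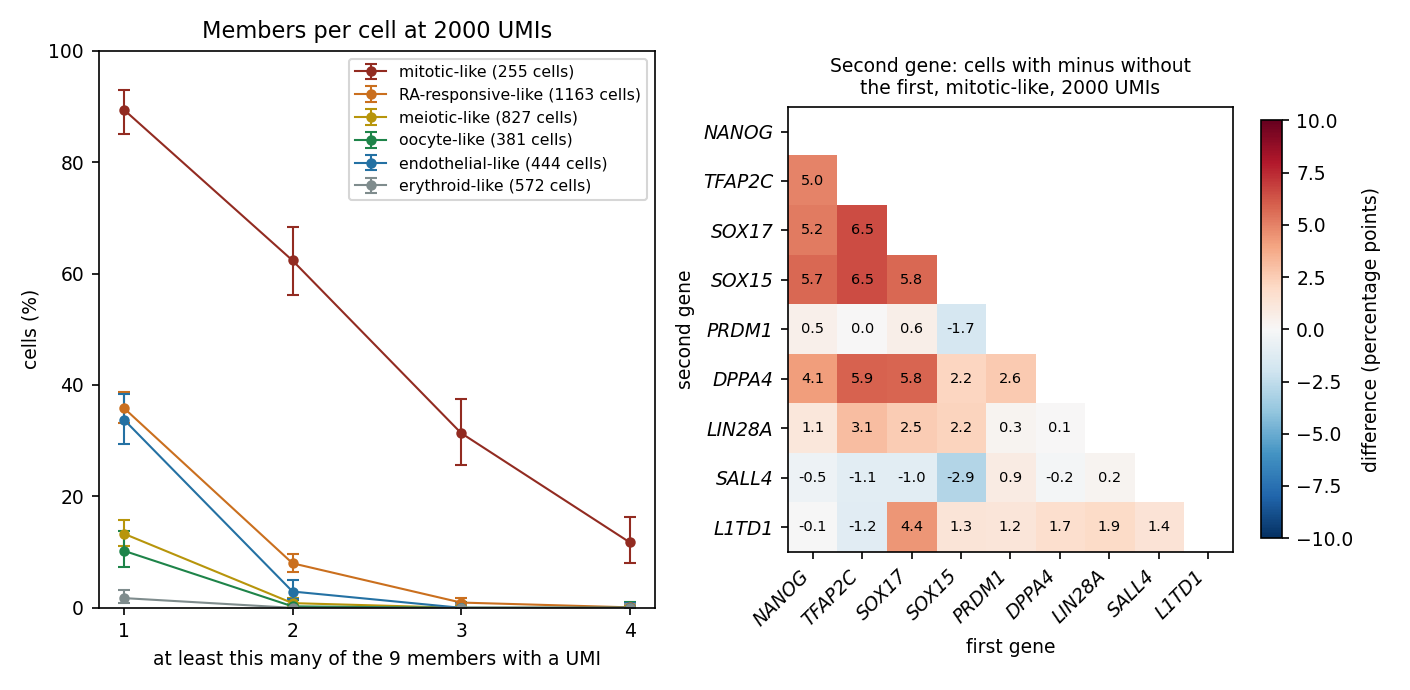
Left, percent of cells (reduced to 2000 UMIs) with a UMI of at least 1, 2, 3 or 4 of the 9 members in 6 groups, with exact 95% binomial intervals; 62.4% of mitotic-like cells had at least 2. Right, share of mitotic-like cells with the second gene among cells with the first minus that among cells without, in percentage points averaged over all reductions to 2000 UMIs, with 28 of 36 differences above 0. The count for pairs of other genes was not computed.

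In the 3 later named steps together, 2371 cells at 2000 UMIs, 3 of 36 pairs had intervals apart. L1TD1 was found in 19.6% (14.0–26.1) of cells with DPPA4 and 8.26% (7.14–9.49) of cells without. SALL4 was in 6.15% (3.11–10.7) and 2.28% (1.70–3.0), and L1TD1 was in 19.7% (10.6–31.8) of cells with SALL4 and 8.83% (7.71–10.1) of cells without. The pooled steps differ in these genes. L1TD1 was in 16.0% of RA-responsive-like, 3.02% of meiotic-like and 1.31% of oocyte-like cells, DPPA4 in 13.3%, 2.30% and 1.31%, and SALL4 in 3.35%, 1.45% and 2.62%. The pool therefore cannot tell co-detection within a step from a difference between steps. The share among pairs of other genes was not computed. Within the RA-responsive-like step alone, 0 of 36 pairs were apart. ZGLP1, a zinc finger factor of RA-responsive germ cells that was among the naming markers of that step, was set beside NANOG. In mitotic-like cells ZGLP1 was in 1 of 84 cells with NANOG and 6 of 171 without, too few to part. In RA-responsive-like cells it was in 10 of 28 cells with NANOG (35.7%, 18.6–55.9) and 264 of 1135 without (23.3%, 20.8–25.8). The intervals overlapped in both steps. DAZL, an RNA-binding protein that licenses germ cells for gametogenesis, was in 34 of the 84 mitotic-like cells with NANOG (40.5%, 29.9–51.7) and 48 of 171 without (28.1%, 21.5–35.4), and DDX4, a germline RNA helicase, in 26.2% (17.2–36.9) and 25.1% (18.8–32.3).

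Dividing cells were compared with the others of the mitotic-like step. They are not limited to that step, since MKI67, CCNA2 and CCNB1 were among the leading genes of a sub-cluster of 226 RA-responsive-like cells. Dividing cells of the RA-responsive-like step were not part of the comparison. At 2000 UMIs 105 cells had a UMI of TOP2A, MKI67, CDK1, CCNB1, UBE2C or BIRC5 and 150 had none, and the intervals overlapped for all 9 members. With so few cells the intervals are wide, and the share of all genes with overlapping intervals was not computed. L1TD1 came closest to parting, found in 41.0% (31.5–51.0) of cells with such a UMI and 24.0% (17.4–31.6) of cells without. SOX15 went the other way with 11.4% (6.05–19.1) and 23.3% (16.8–30.9).

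Other genes of pluripotency were mixed. Of 31 such genes listed beside the members, 24 were in the table and 18 had at least 50 UMIs in the 4 steps. Of these, 2 were at least 2-fold higher in mitotic-like than in RA-responsive-like cells, 2 were that much lower and 14 lay between, where 3.94% of all genes were that much higher and 6.85% that much lower. The median log2 ratio was 0.13, against −0.14 for all genes, with 7 intervals above 0 and 2 below. The share of all genes with an interval above or below 0 was not computed. Of the 18, 8 were highest in mitotic-like cells among the 4 steps, where 20.7% of all genes were. TFCP2L1, a factor of the naive pluripotent state, was at 26.4 against 2.75 CPM (log2 1.51, 1.29–1.70) and TRIM71, an RNA-binding let-7 target, at 156 against 56.7 CPM (1.31, 1.17–1.46). TBX3 was lower, 13.8 against 57.6 CPM (−1.51, −1.76 to −1.24), as was KLF5, 8.31 against 34.7 CPM (−1.29, −1.54 to −1.01), which was named after its value was seen because it completes the count of 2. LIN28B, the paralogue of LIN28A, was at 56.4 and 51.3 CPM (0.12, −0.08 to 0.31), an interval below that of LIN28A. PRDM14, a PGC factor of the mouse and a paralogue of PRDM1, was at 16.0 and 8.02 CPM. SOX2, which primate PGCs are known to lack, was at 0.573 and 1.52 CPM.

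Other genes of germ cell specification and of the germ cell surface were also mixed. Of 20 listed, 18 were in the table and 14 had at least 50 UMIs, of which 2 were at least 2-fold higher in mitotic-like cells and 0 that much lower, against 3.94% and 6.85% of all genes. The median was 0.09, with 5 intervals above 0 and 3 below, again without a share over all genes. Of the 14, 3 were highest in mitotic-like cells, where 20.7% of all genes were. ITGA6, an integrin used to sort PGC-like cells, was at 374 against 100.2 CPM (1.80, 1.70–1.91) and reached 560 CPM in granulosa-like cells, and DND1, an RNA-binding protein that protects PGCs, at 128 against 54.2 CPM (1.10, 0.95–1.26). KIT, the stem cell factor receptor, was at 118 against 89.7 CPM and EPCAM, an adhesion molecule, at 87.1 against 71.0 CPM. Of 30 paralogues of members, 23 were in the table and 16 had at least 50 UMIs. Of these 16, 0 passed 2-fold in either direction, against 3.94% and 6.85% of all genes. Their median was 0.00, and 5 were highest in mitotic-like cells, against 20.7% of all genes. PRDM2 was at 91.7 and 90.5 CPM, SOX4 at 55.3 and 41.0 and POU2F1 at 33.8 and 32.5. LIN28B, PRDM14 and SOX2 stand in the pluripotency list and among the paralogues and were counted in both.

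The genes whose level followed each member most closely over 27 clusters were named by Pearson's r of log2(CPM + 10). These clusters share libraries and depth, and r is a description. TFAP2C and SOX15 followed each other (r = 0.95), as did DPPA4 and L1TD1 (0.96), while PRDM1 had r between 0.35 and 0.60 with the other 8. The closest genes were TLX3, MYH14 and NANOS3 for NANOG (0.92 to 0.93), the unnamed gene ENSMFAG00000004232, SOX15 and GLDC for TFAP2C (0.94 to 0.95), and TTC36, NMRK2 and the unnamed ENSMFAG00000003734 for SOX15 (0.95 to 0.96). They were TRIML2, MYH14 and L1TD1 for DPPA4 (0.96), DPPA4, BEND4 and PRDM14 for L1TD1 (0.95 to 0.96), GIP, NANOS3 and XIRP2 for LIN28A (0.93 to 0.95) and ELOVL3, DPPA4 and CECR2 for SALL4 (0.91 to 0.94). NANOS3, a germ cell RNA-binding protein, was among the naming markers of the mitotic-like step. For SOX17 the closest were SMAGP, CRACR2B and EXOC3L2 (0.89 to 0.94) and for PRDM1 VMO1, PRKCQ and NFKBIB (0.86 to 0.89), with endothelial-like and immune cell-like clusters among the points. GIP, the gene of a gut hormone, reached 436 CPM in mitotic-like cells.

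Neighbouring genes were read from the gene order of the RefSeq assembly T2T-MFA8v1.1, which is not the genome of the count table, so no position is given. The genes given here were picked after their values were seen, from up to 3 named coding genes on either side of a member. MORC1, a germline gene near DPPA4, was at 61.0 CPM in mitotic-like and 10.4 in RA-responsive-like cells. CD52 near LIN28A was at 150 and 14.6 CPM, but also at 2634 CPM in erythroid-like cells. DPPA3, a germ cell and pluripotency gene near NANOG, was at 4.30 and 1.08 CPM. Near PRDM1, ATG5 was at 53.9 and 61.2 CPM, and near SOX17, MRPL15 was at 161 and 181 CPM. NANOG has processed pseudogenes in primates, and how reads from near-identical copies were counted is not given in the sources used here.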

How the data were processed

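Single-cell RNA-seq of whole fetal ovaries was deposited as 1 table of raw UMI counts for both stages. According to the study's methods and the submitters' processing notes, the authors made these deposited counts with Cell Ranger 3.0.2 against the build Macaca_fascicularis_5.0 and used Seurat. The table was clustered with Seurat 5.3.0 (R 4.3.3, Matrix 1.6.5) from 2000 variable genes without the members (7 of the 9 were among them), 18 principal components and resolution 0.6, and germ cells were clustered again at resolution 0.6. A cluster was named when at least 3 markers of a list were 1.5-fold higher than in the other cells and found in 5% of its cells, unless markers of somatic lists outnumbered its own among its 10 leading genes. That exception left 789 germ cells with 4 meiotic markers without a step. Germ cell and step markers were read jointly, and macrophage and lymphocyte lists were merged, both decided after the cluster tables were seen. Levels, ratios, shares and random reductions to a fixed depth were computed with scipy 1.17.1, numpy 2.4.6 and pandas 2.3.3 under Python 3.11.15. Doublets were scored with scrublet in scanpy 1.11.5, where no cell was called (0), and leaving out the top 8% by score was kept as an alternative. Figures were drawn with matplotlib 3.10.9.

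Depth was 148824177 UMIs in all, with a median of 3756 per cell. With 1 library a stage no test was run. The ratio calculation was tried on simulated counts of 10822 genes in mitotic-like and RA-responsive-like cells, 200 of them changed. There 95.4% of the intervals held the true ratio. That run added almost no CPM to the levels and simulated counting error alone. The 95.4% therefore does not check the reported intervals, which have CPM added, or any spread between cells or fetuses.

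Members and lists were chosen with earlier results of these data known. Every member was named, and of each other list up to 4 genes with the highest level in mitotic-like cells and up to 3 at least 2-fold apart. For each member the 3 genes with the highest r and at least 50 UMIs were named.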

Additional observations from a re-analysis of the deposited data

How the results depend on the processing

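All 9 members were highest in mitotic-like cells under each of the 13 alternatives run, with 5 to 394 mitotic-like cells. The median log2 ratio of mitotic-like over RA-responsive-like cells, 1.79 as reported, was 2.25 with 1 CPM added, 2.32 with only cells of 200 to 3000 genes, 1.52 with only cells of at least 2000 UMIs and 1.37 with only ending 2, where 5 mitotic-like cells remain. The other 10 alternatives gave 1.63 to 1.88. All 9 members were at least 2-fold higher in 9 of 14 alternatives and 7 of 9 in the other 5, a count chosen after seeing the data. The share of mitotic-like cells with at least 2 members, 62.4%, was 32.7% at 1000 UMIs, 92.3% at 5000 UMIs, 53.0% with only cells of at least 2000 UMIs (394 mitotic-like cells) and 0% with only ending 2 (4 cells). The other 12 gave 57.9% to 64.9%, among them the mean of 20 other random draws, 62.8%, an alternative chosen after seeing the data. The 32.7% and 92.3% came from other random draws than the 34.2% and 95.7% given in the results for the same depths. The 8% of cells with the highest doublet scores left out gave 63.6% and a median log2 ratio of 1.79. The highest somatic level of SOX17, 189 CPM, was in endothelial-like cells in every alternative run, at 203 CPM without those doublet-scored cells and 145 CPM with only ending 1, and at 187 to 196 CPM in the other 10. Apart from those that follow from fewer cells or another depth by construction, the cause was not tested.

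No paired analysis was possible because each stage has 1 library and no test was run, and for the same reason no replicate was left out. Intervals cover counting error only, the endings are not tied to the stages, and ending and step overlap so far that the fetus and the step cannot be told apart in mitotic-like and oocyte-like cells. Cells shallower than 2000 UMIs are absent from every co-detection value.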
